A study of Paracentrotus lividus with 54 samples.

Results

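The genes described here are 180 gene models of the sea urchin Paracentrotus lividus, out of 33922 in the deposited count table. Each was high in the adult gut and had risen in the pluteus larva over the gastrula. The rule took models at 10 CPM or more (counts per 1000000 counts of the library) in gut, and at least 4 times the level in each of ovaries, tubefeet and Aristotle's lantern. Of these it kept models at 5 CPM or more in pluteus and at least 3 times the higher of the early and late gastrula libraries. The members were thus chosen by their levels in those 7 libraries, which are given as a description, without a test. Bodywall, prism and the 13 libraries before gastrula were not used by the rule.

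The sea urchin gut forms at gastrulation, when the archenteron folds inwards, and is later divided into foregut (oesophagus), midgut (stomach) and hindgut (intestine). The pluteus is the larva that begins to feed, so cells of its gut take up digestive functions around this stage. At metamorphosis much of the larval stomach and intestine is kept and remodelled, while the adult mouth and oesophagus form anew, and the adult gut digests grazed algae.

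The study, on the genome and regulatory evolution of this sea urchin, followed normal development of wild-type animals by RNA-seq and by ATAC-seq, which marks open chromatin. RNA came from 17 developmental libraries of eggs, whole embryos or larvae, from egg at 0 h and the 2-cell stage at 2 h, through late mesenchyme blastula at 20 h, early gastrula at 21 h, late gastrula at 24 h and prism at 36 h, to pluteus at 48 h. A further 5 libraries came from adults: gut, bodywall, tubefeet, ovaries and the chewing organ, called Aristotle's lantern. The labels give no age for the adults. Library totals ran from 14657193 to 36305776 counts, and 1 library per stage or tissue means that no level has a replicate error. Intervals on levels are exact 95% Poisson intervals and cover counting error only. In bulk samples such as these, fewer cells of a type and less RNA per cell cannot be told apart. The labelled gut could not be checked against digestive marker genes, because the files give identifiers without gene names. For the same reason no function is given for any member.

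Adult gut levels of the members ran from 10.35 to 54790 CPM, with a median of 98.59 CPM. In pluteus they ran from 5.122 to 2364 CPM, with a median of 25.61 CPM. Of all models, 5440 were at 10 CPM or more in gut, 798 also met the gut pattern and 1106 met the pluteus rise, and both held for the 180. The 618 gut genes not raised at pluteus and the 926 pluteus-raised genes without the gut pattern serve below as comparison lists. Just inside the limits stood members at 10.35 CPM in gut, 4.054 times the next of the 3 tissues, 5.122 CPM in pluteus and 3.003 times gastrula. Just outside stood genes at 9.663 CPM, 3.917 times, 4.92 CPM and 2.88 times. The gut ratio alone kept out 250 models, the pluteus level 145, the pluteus ratio 148 and the gut level 28.

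Among the other tissues of the rule, Aristotle's lantern came closest to gut. It was the next highest for 126 members, ovaries for 34 and tubefeet for 20. The median member level was 3.647 CPM in lantern, 1.102 CPM in ovaries and 0.3506 CPM in tubefeet. The gut genes not raised at pluteus had the same order, at 2.396, 0.7712 and 0.2921 CPM, so it was not particular to the members. Over all models the order was the reverse, at 0.2084, 0.3856 and 0.9933 CPM. No count was found in tubefeet for 40 members, in ovaries for 15 and in lantern for 11.

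Together the members held 11.6% of all gut counts and 8.33% of bodywall counts. A single gene, PL22586, held 5.48%, and the rest of the members held 6.14% without it. In pluteus their share was 1.79%, in prism 0.823% and in late gastrula 0.226%. Egg, late mesenchyme blastula and early gastrula stood at 0.0283%, 0.0638% and 0.0731%. The share was thus far smaller in every developmental library than in adult gut or bodywall. The 10 members highest in gut held 8.14% of gut counts, 0.74% of pluteus counts and 0.552% of prism counts.

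The members did not all reach a set level at the same stage. Taking 5 CPM as the level at which a gene counts as present, 35 members first reached it before gastrula, 34 at gastrula, 31 at prism and 80 only at pluteus. Of the 35 early members 8 were at 5 CPM or more in egg, 7 first reached it at the 2-cell stage and 11 at early mesenchyme blastula. Some of these crossings are small, such as a member at 4.958 CPM in egg and 5.474 CPM at the 2-cell stage. With TMM 12 members were at 5 CPM or more in egg and 11 at the 2-cell stage, so this early step depends on scaling. Of the 34 gastrula members 8 reached 5 CPM in early gastrula and 26 in late gastrula. The number of members at 5 CPM or more was 8 in egg, 21 in late mesenchyme blastula and again in early gastrula, 53 in late gastrula and 75 in prism. Over all 33922 models it was 8781 in egg, 10571 in late mesenchyme blastula, 10959 in early gastrula and 11925 in late gastrula. For prism it was 6175 and for pluteus 12382, so fewer models reached that level in prism than in the libraries on either side. The split between the prism and pluteus classes rests on that prism library. The classes depend on the level asked for: at 2 CPM 74 members were present before gastrula and 44 first at pluteus. They also depend on scaling, since with TMM, which sets libraries to a common level for most genes, 51 members came first at prism and 67 first at pluteus.

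Most members were at or near 0 in the egg. No count was found there for 106 of the 180 (58.9%), and the median was 0 CPM. The same held for 49.2% of all models and 60.2% of the gut genes not raised at pluteus, but for 9.55% of all genes at 5 CPM or more in pluteus. The median reached 0.4986 CPM in swimming blastula, 0.6627 CPM in late mesenchyme blastula, 1.639 CPM in late gastrula and 3.054 CPM in prism, against 25.61 CPM in pluteus. By late gastrula 9 members had no count and in prism 15. The highest of the 17 developmental libraries was pluteus for 165 members and prism for 10. With TMM scaling these counts were 142 and 32. The rule asked for pluteus at least 3 times both gastrula libraries, so the place of pluteus is partly set by it. The matching counts over all models were not made.

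**Figure D1:**
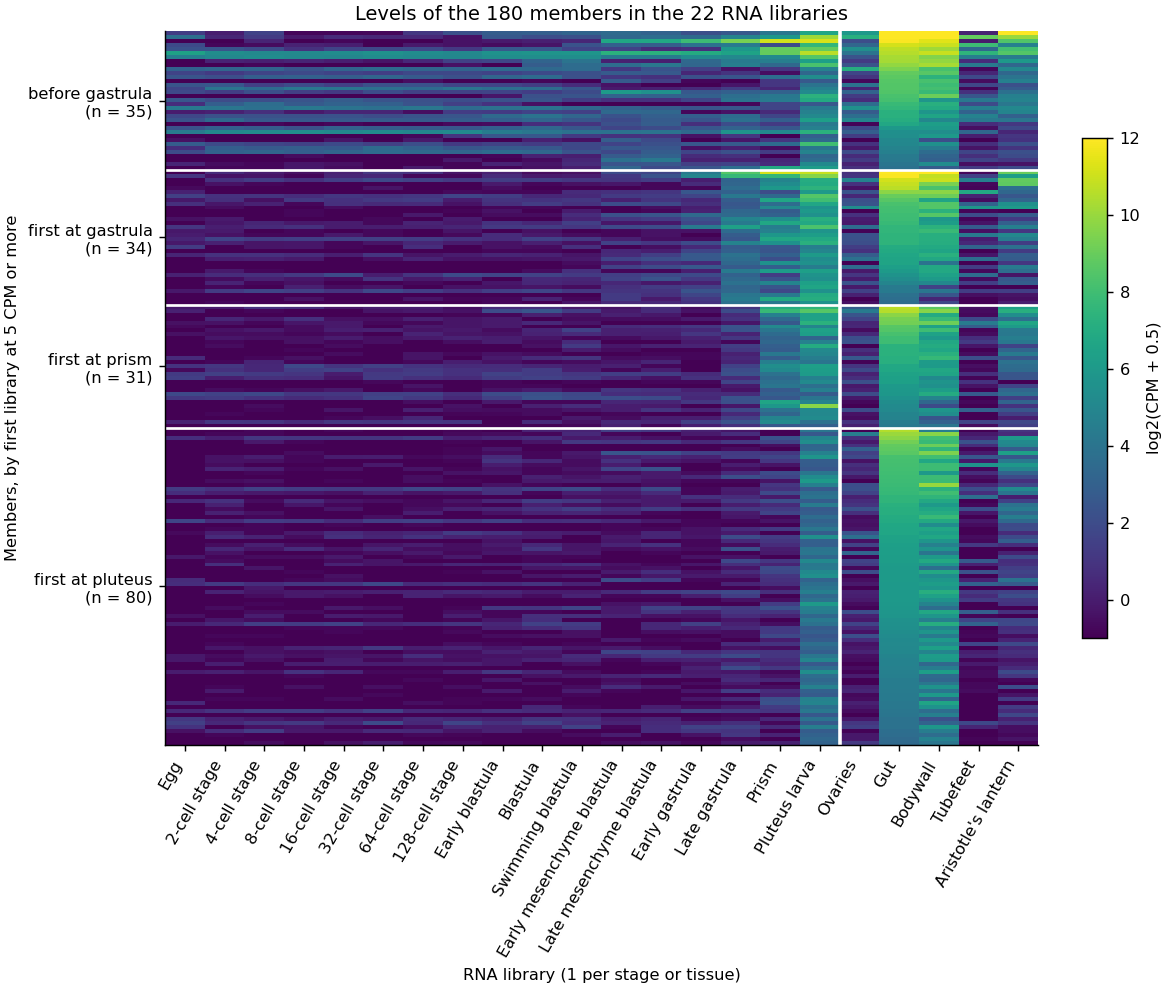
Levels of the 180 members (rows, by class of first library at 5 CPM or more and then by gut level) in the 22 RNA libraries (columns), as log2(CPM + 0.5); colours stop at 12, so the highest levels share the top colour. Most rows are dark until prism or pluteus, the gut and bodywall columns are bright in all 4 classes, and ovaries and tubefeet are mostly dark.

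The classes also differed in level. Members present before gastrula had the highest median gut level, 287.8 CPM, followed by 175.6 CPM for those first at gastrula, 111.7 CPM for those first at prism and 64.74 CPM for those first at pluteus. The median pluteus level did not follow that order. It was 81.78 CPM for members first at gastrula, above 35.78 CPM for those present earlier, 34.64 CPM for those first at prism and 12.43 CPM for those first at pluteus. The classes were themselves cut by level, so their order in level is a description. In prism, the gastrula class already stood at a median of 23.7 CPM and the prism class at 14.43 CPM. The members present before gastrula were at only 3.265 CPM there, and those first at pluteus at 1.001 CPM.

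**Figure D2:**
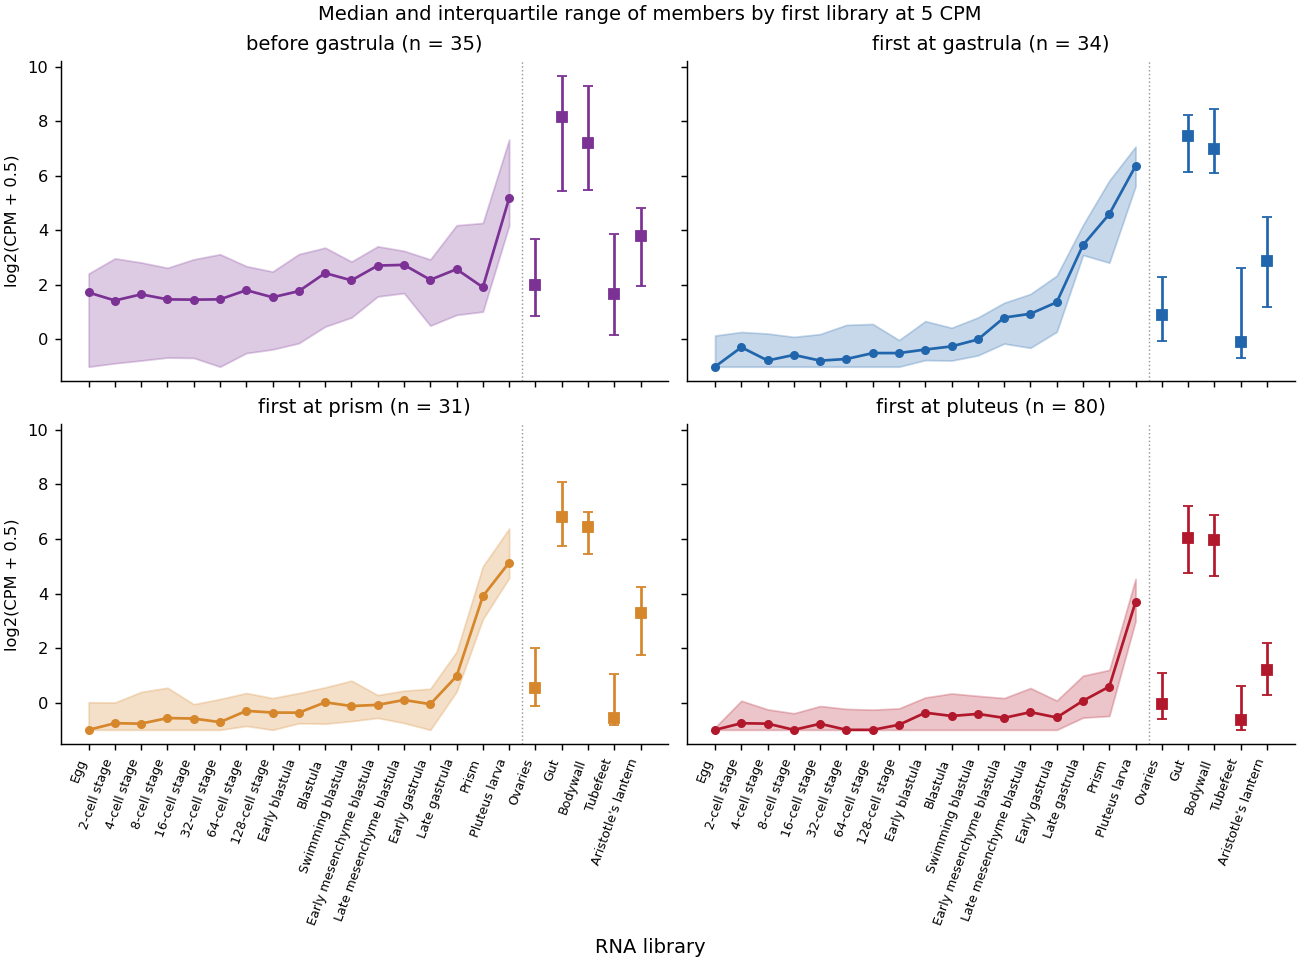
Median (points) and interquartile range (bands and bars) of log2(CPM + 0.5) over the members of each class of first library at 5 CPM, in 17 developmental (circles) and 5 adult (squares) libraries of 1 sample each. Members first at gastrula stand higher from late gastrula on and are highest in pluteus; the median of those present before gastrula is lower in prism than in late gastrula on this scale (3.265 against 5.465 CPM), an order that TMM scaling turns round (6.764 against 4.143 CPM).

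Prism lies between the stages that chose the members and was itself free of the rule, although the gastrula libraries it is set against were not. Of the 180 members 47 (26.1%) stood at 5 CPM or more in prism and at least 3 times the higher gastrula library. The same held for 1.21% of all models, 1.46% of the gut genes not raised at pluteus and 17.6% of the pluteus-raised genes without the gut pattern. The comparison shares its gastrula libraries with the pluteus rise in the rule, so it gives no separate evidence of that rise. Prism was above late gastrula for 111 members, with a median log2 ratio of 0.51, while the median over all models was -0.45. The same order held for 4812 of the 33922 models. Among the 926 pluteus-raised genes without the gut pattern it held for 462, with a median of 0. From prism to pluteus the median log2 step of the members was 2.77, and that of those 926 genes 2.76. The scaling matters at this stage, since the prism library had a TMM factor of 0.4827 and TMM moved the median prism to late gastrula ratio of all models from -0.45 to 0. That median includes models without counts in either library, whose log2 ratio is 0. Over genes at 5 CPM or more in pluteus the median log2 ratio went from -2.09 to -0.79, so TMM did not bring it to 0. With TMM 75 members (41.7%) met the prism pattern, against 4.58% of all models. The prism to late gastrula median of the members was then 1.67, and the pluteus to prism median 1.65.

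Of the members 10 stood higher in prism than in pluteus, compared with 13.5% of all models. Among the 926 pluteus-raised genes without the gut pattern 36 did so. With TMM scaling it was 33 members, 8311 of the 33922 models and 179 of those 926 genes. The pluteus level was used by the rule, so the members' count is partly set by it. One of the 10 is the member at rank 3 in gut level, on Scaffold_3425 (+ strand, 14049416 to 14056727, 41 exon records), singled out after its values were seen. Its level was 18.7 CPM in early gastrula, 365.1 CPM in late gastrula, 2329 CPM in prism and 1902 CPM in pluteus. In the adult it stood at 3980 CPM in gut, 4276 CPM in bodywall, 514.9 CPM in lantern and 1.267 CPM in ovaries. Gut and bodywall lay close together on library totals, and both lay above every developmental library. With TMM scaling gut stood at 7860 CPM, prism at 4825 CPM and bodywall at 4160 CPM, so bodywall was then below prism.

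The member with the highest gut level, PL22586, lies on Scaffold_3433 (- strand, 10936588 to 10945255) with 4 exon records of 600 bp in all. Coordinates are those of the deposited files, 1-based. Its level was 54790 CPM in gut (54700 to 54900), 36100 CPM in bodywall, 5683 CPM in lantern, 59.6 CPM in ovaries and 0.6427 CPM in tubefeet. Gut and bodywall were both far above lantern, and tubefeet was near 0. In development it stood at 2.034 CPM in egg and at 0.08721 CPM at the 8-cell stage. It reached 10.74 CPM (8.91 to 12.8) in early mesenchyme blastula, then stood at 5.465 CPM in late gastrula, 17.48 CPM (14.9 to 20.4) in prism and 102 CPM (96.9 to 107) in pluteus. Pluteus was the highest of the developmental libraries and lay well below gut. Per kb of exon its gut level was 91320 CPM, and the next highest member per kb reached 3806 CPM.

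PL02675, second in gut level, lies on Scaffold_1721 (- strand, 3253907 to 3257796) with 5 exon records of 2373 bp. It stood at 5094 CPM in gut, 5971 CPM in bodywall, 1064 CPM in lantern, 494.9 CPM in tubefeet and 145.5 CPM in ovaries. All 5 adult tissues held it. Bodywall was above gut on library totals, but with TMM scaling gut was above bodywall, at 10060 against 5809 CPM. Egg had 12.84 CPM (10.5 to 15.6), while the libraries from the 2-cell to the 128-cell stage lay between 0.2763 and 1.962 CPM. The egg level was thus not kept in cleavage. It then stood at 12.02 CPM in late mesenchyme blastula, 27.78 CPM in late gastrula, 61.62 CPM in prism and 1115 CPM (1100 to 1130) in pluteus. From late gastrula on, its largest step was from prism to pluteus.

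**Figure D3:**
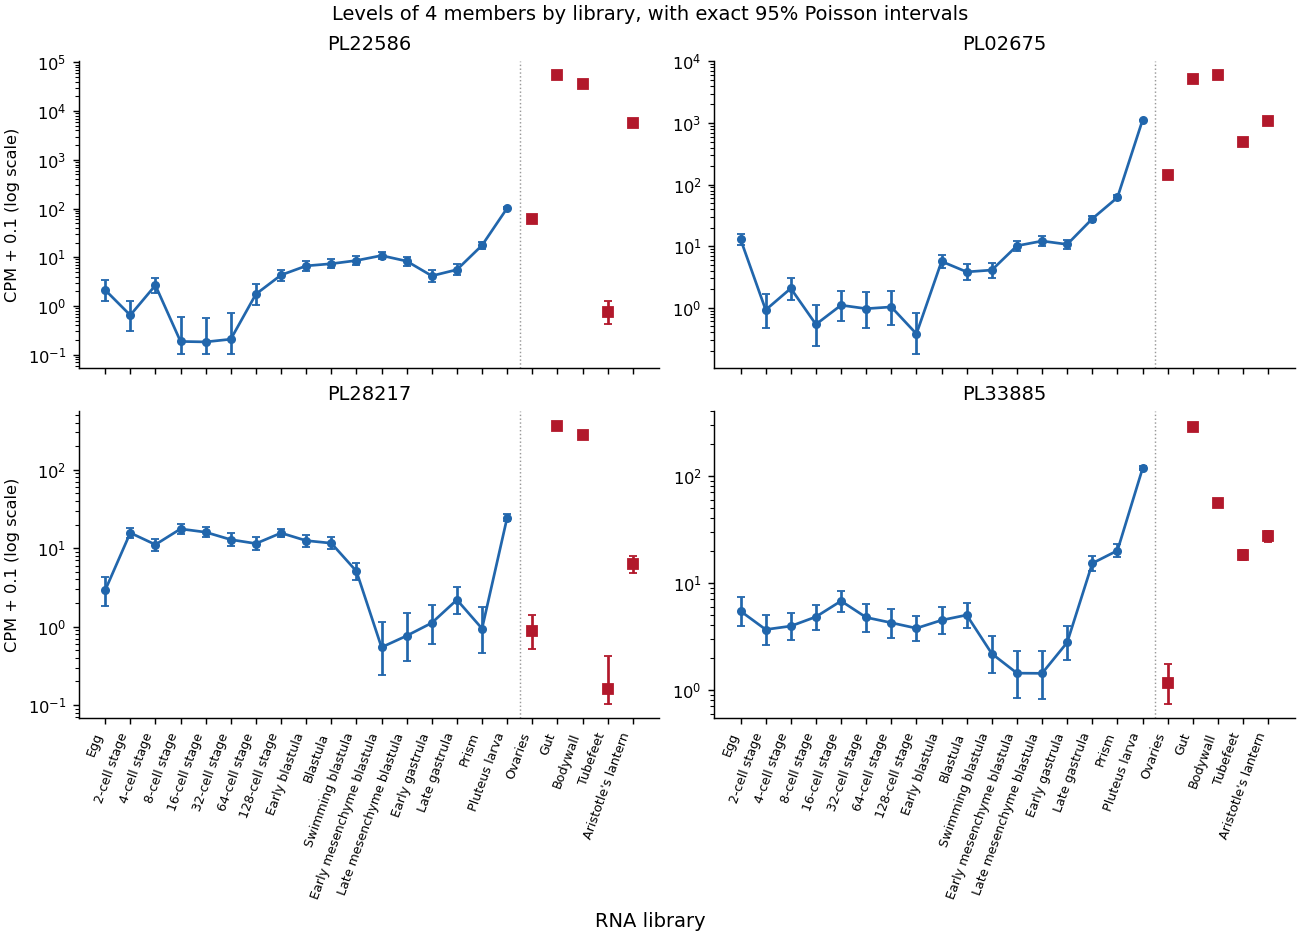
CPM + 0.1 (log scale) of 4 members in 17 developmental libraries (circles, joined) and 5 adult libraries (squares), 1 library each, with exact 95% Poisson intervals. PL22586 and PL02675 reach 102 and 1115 CPM in pluteus; PL28217 and PL33885 are lowest around mesenchyme blastula or gastrula and rise again to 24.53 and 117 CPM.

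Change before gastrula was tested in the 13 libraries from egg to late mesenchyme blastula, which the rule did not use. A smooth curve over stage order was fitted to the counts with edgeR's quasi-likelihood test, and early and late mesenchyme blastula were set against egg to 8-cell. Scatter around the curve stood in for replicate error. The filter asked for enough counts in each of the 13 libraries. Only 26 of the 180 members passed it, and 154 did not. Members near 0 in cleavage were thus left out even where later counts were high. PL22586 was not tested, and neither was the member at rank 5 in gut level, at 105.2 CPM in early mesenchyme blastula. Of the 26 members 7 were higher in mesenchyme blastula, 3 were lower and 16 had no call, at a Benjamini-Hochberg adjusted p under 0.05 and a log2 change of at least 1. Over the 12150 genes tested 25.5% were higher and 28.5% lower, so the share of calls among these 26 was near or below the background. Genes near 0 in cleavage could not enter, so these shares do not speak for the other 154 members. The median log2 change of the 26 was -0.04, and that of all genes tested -0.07.

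With no filter on low counts 176 members entered the fit, 63 were higher and 11 lower. The background was then 26.3% higher and 17.7% lower over 29192 genes. The members' share was thus above the background for higher and below it for lower. The median log2 change was 1.79 for the members and 0.55 for all genes. Many of these members had counts at or near 0 in cleavage, and a fitted change of such a gene is no bound. Of the 63, 19 belonged to the class present before gastrula, 16 to the gastrula class, 9 to the prism class and 19 to the pluteus class. Members of every class were thus among those called higher, at levels under 5 CPM for all classes but the first.

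Both of the named members that fell were present in cleavage, lower at mesenchyme blastula and higher again in pluteus. PL28217 lies on Scaffold_3431 (+ strand, 22349988 to 22393015, 17 exon records). It stood at 2.797 CPM in egg and between 11.01 and 17.53 CPM in the 9 libraries from the 2-cell stage to blastula. Its level was 4.986 CPM in swimming blastula and 0.4438 CPM (0.144 to 1.04) in early mesenchyme blastula. By the edgeR test the log2 change was -3.04, with an SE of 0.60 and an adjusted p of 0.000375. It stayed low, at 2.095 CPM in late gastrula and 0.8426 CPM in prism, before 24.53 CPM (22.1 to 27.2) in pluteus. In the adult it stood at 361.3 CPM in gut and 277.2 CPM in bodywall, against 6.147 CPM in lantern, 0.7712 CPM in ovaries and 0.05843 CPM in tubefeet. Ovaries did not share the cleavage level.

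PL33885 lies on Scaffold_3430 (+ strand, 7611481 to 7616333, 5 exon records). Its levels were 5.339 CPM in egg, 6.663 CPM at the 16-cell stage and 1.325 CPM (0.725 to 2.22) in late mesenchyme blastula. Here edgeR gave a log2 change of -1.39, with an SE of 0.39 and an adjusted p of 0.00586. Without the egg library it gave -0.98 and an adjusted p of 0.06, so the call rests on egg. The gene then reached 15.12 CPM in late gastrula, 19.91 CPM in prism and 117 CPM in pluteus. Among adult tissues gut at 287.8 CPM stood well above bodywall at 56.01 CPM, lantern at 27.19 CPM, tubefeet at 18.17 CPM and ovaries at 1.047 CPM.

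Several members not named by the rule for examples had patterns of their own, and were singled out after their values were seen. The member at rank 5 in gut level (Scaffold_3433, - strand, 49318845 to 49325455, 27 exon records) went from 0.8309 CPM in swimming blastula to 105.2 CPM in early mesenchyme blastula. It then stood at 243.4 CPM in early gastrula, 644.9 CPM in late gastrula, 2236 CPM in prism and 2364 CPM in pluteus, against 3861 CPM in gut. It was the member with the highest pluteus level, and also the highest per kb of exon, at 896.2 CPM. The member at rank 38 stood at 70.82 CPM in early mesenchyme blastula, the highest of its developmental libraries, and at 5.435 CPM in early gastrula. Its levels in pluteus and gut were 37.27 and 357.3 CPM. The member at rank 57 was present in cleavage, with 12.11 CPM at the 4-cell stage, and had no count from swimming blastula to early gastrula. It was at 5.189 CPM in pluteus and 216.3 CPM in gut. The member at rank 13 was at 90.26 CPM in egg, the highest egg level of all members, and at 1622 CPM in pluteus, 1490 CPM in gut and 1940 CPM in bodywall.

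Bodywall, which the rule ignored, held almost all members as well. Of the 180 members 163 (90.6%) were at 10 CPM or more in bodywall, but so were 96.8% of all 5440 genes at that level in gut. Set against the other tissues, 149 members (82.8%) stood at 10 CPM or more in bodywall and at least 4 times each of ovaries, tubefeet and lantern, compared with 3.07% of all models. The gut genes not raised at pluteus were at 77.3% and the pluteus-raised genes without the gut pattern at 4.54%. This comparison uses the same ovaries, tubefeet and lantern libraries as the rule, so the gut and bodywall patterns share their controls. With TMM scaling the count was 95 members (52.8%).

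The median bodywall level of the members was 84.63 CPM, with a range from 0.7505 to 36100 CPM, beside 98.59 CPM in gut. The median log2 ratio of gut to bodywall was 0.33, with quartiles of -0.26 and 1.13, and 112 members lay within 2-fold. So did 369 of the 618 gut genes not raised at pluteus and 8321 of the 33922 models. With TMM these counts were 53, 232 and 13005. Bodywall was above gut for 59 members on library totals but for 15 with TMM scaling, where the median ratio was 1.35. The TMM factor was 0.5064 for gut and 1.028 for bodywall, and TMM moved the median gut to bodywall ratio of all models from -0.38 to 0. That median includes models without counts in either library, whose log2 ratio is 0. Over genes at 5 CPM or more in pluteus it went from -1.07 to -0.189. On library totals 21 members (11.7%) were at least 4 times higher in gut than in bodywall, against 3.35% of all models, 1.91% of the genes at 10 CPM or more in gut and 11.8% of the gut genes not raised at pluteus. The share among members was thus near that of the other gut genes. With TMM 53 members (29.4%) were at least 4 times higher in gut, against 5.72% of all models and 30.7% of the gut genes not raised at pluteus. Across the 180 members, Spearman's rho between gut and bodywall levels was 0.845, as a description over genes that share the same 2 libraries. It was 0.798 over the gut genes not raised at pluteus, 0.922 over the pluteus-raised genes without the gut pattern and 0.92 over all models. A close match of gut and bodywall was thus not particular to the members. Whether the bodywall library held gut tissue was not tested. Bodywall also differs from the other 21 libraries in holding odd counts, as given with the processing.

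**Figure D4:**
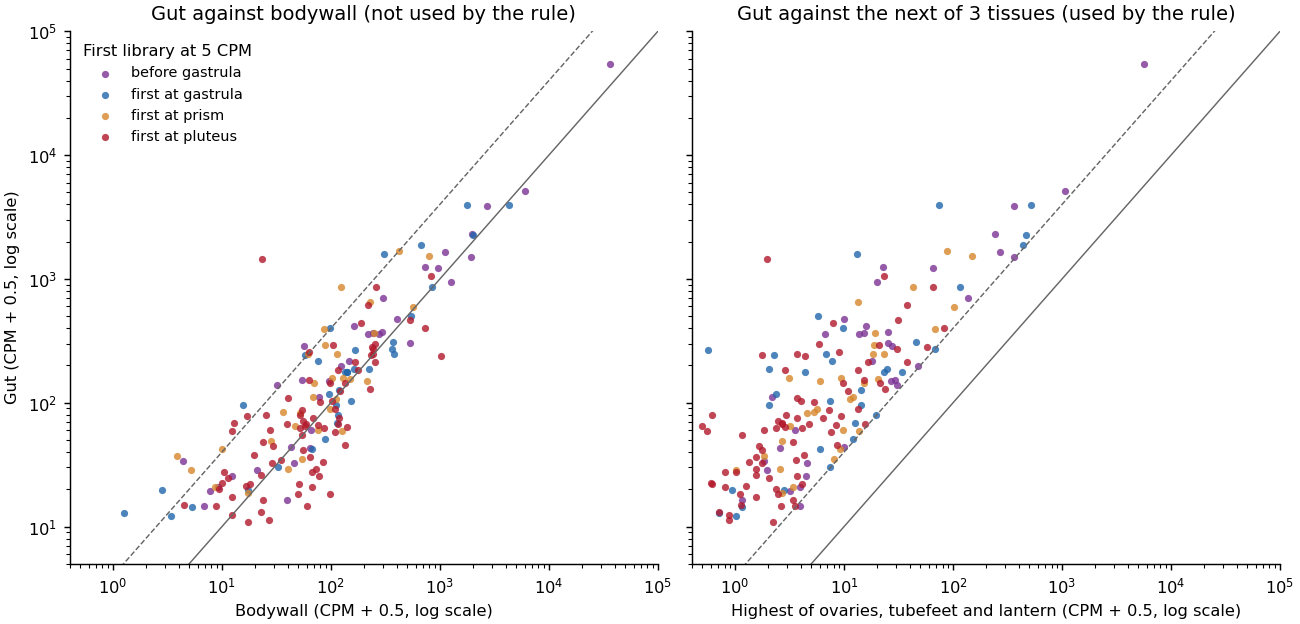
Gut level of each of the 180 members against bodywall (left) and against the highest of ovaries, tubefeet and lantern (right), in CPM + 0.5 on log axes, coloured by class of first library at 5 CPM; solid lines mark equal levels and dashed lines a 4-fold excess in gut. Points on the left lie around the line of equality with 21 members past 4-fold, while on the right all lie past 4-fold because the rule asked for it.

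The order of members in pluteus followed that in gut only loosely. Spearman's rho between the levels was 0.395 over the 180 members, and between prism and pluteus it was 0.749, again as descriptions across genes of single libraries. These values were 0.12 and 0.688 over the gut genes not raised at pluteus, and 0.738 and 0.842 over all models. Pluteus lay below gut by a median log2 ratio of -1.80 (-3.14 with TMM), and above gut for 28 members (9 with TMM). Over all models the median was 0.46 (0 with TMM), and pluteus was above gut for 20529 (16157 with TMM). Models without counts in either library are part of that median, and their log2 ratio is 0. The rule used both libraries and asked for a higher level in gut, so the members' order is partly set by it. A pair with pluteus above gut lies side by side on Scaffold_3431 (7492739 to 7500607), chosen after its values were seen. Its members stood at 49.47 and 123.9 CPM in pluteus and at 11.73 and 13.94 CPM in gut. Both were present in late gastrula, at 14.21 and 16.85 CPM.

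ATAC-seq was read from the authors' peak lists, 1 for each of 5 stages and each made from pooled samples, and a start peak is a peak summit within 1 kb of the annotated gene start. These lists are independent of the rule, which used RNA. Of the 180 members 8 had a start peak in the 16-cell list (4.44%, exact 95% binomial interval 1.94 to 8.57), compared with 9.14% of all models. In blastula 48 members had one (26.7%, 20.4 to 33.8; all models 37.4%), and in gastrula 67 (37.2%, 30.1 to 44.7; all models 40.3%). Up to gastrula the members' share was thus at or below that of all models. In prism it was 72 members (40%, 32.8 to 47.6; all models 34.9%), and in pluteus 43 (23.9%, 17.9 to 30.8; all models 22.2%). The intervals in gastrula, prism and pluteus include the share of all models, and those of the 16-cell and blastula lists lie below it.

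The lists differ in length, from 30683 peaks in 16-cell to 154157 in gastrula, so shares cannot be read as a course over time. With the 30683 top-scoring peaks of each list, the members' shares were 6.67% in blastula, 7.78% in gastrula and 13.9% in both prism and pluteus. All models then stood at 14.3%, 18%, 18% and 18.1%, so the order against all models in prism and pluteus turned round. On full lists the gut genes not raised at pluteus were at 24.3% in prism and 10.5% in pluteus, below the members in both, and on equal lists at 8.58% and 8.41%. The pluteus-raised genes without the gut pattern were at 46.9% and 33.6% on full lists. Genes at 5 CPM or more in pluteus, a background added after seeing the data, were at 53.8% and 41.3%, above the members. The members thus lay between both comparison lists in prism and pluteus, and below expressed genes as a whole.

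Start peaks were also compared between blastula and prism, whose lists hold 142485 and 112026 peaks. A start peak in prism and none in blastula was found for 36 members (20%), and the reverse for 12 (6.67%). Over all models these shares were 4.9% and 7.34%, and over the gut genes not raised at pluteus 6.96% and 8.74%. Among the pluteus-raised genes without the gut pattern 15.8% had one in prism and none in blastula. With equal lists, an alternative added after seeing the data, 17 members (9.44%) had one in prism and none in blastula and 4 (2.22%) the reverse. The first share was then 6.37% over all models, 5.34% over the gut genes not raised at pluteus and 13% over genes at 5 CPM or more in pluteus. No test of these differences was made, and on equal lists the members lay within the range of the other groups.

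Among the members 91 (50.6%) had a start peak in at least 1 list, 7 in all 5 and 89 in none. At least 1 list held one for 45.2% of all models, 36.6% of the gut genes not raised at pluteus, 54.9% of the pluteus-raised genes without the gut pattern and 61.8% of genes at 5 CPM or more in pluteus. The members' share was thus near the background. The first list to hold it was 16-cell for 8, blastula for 40, gastrula for 30, prism for 12 and pluteus for 1.

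In the gastrula, prism and pluteus lists, start peaks were most frequent in the class whose RNA first reached 5 CPM at gastrula. There 21 of 34 members had one in gastrula (61.8%, 43.6 to 77.8) and 23 in prism (67.6%, 49.5 to 82.6). Both intervals include the shares of genes at 5 CPM or more in pluteus, 58% and 53.8%. On equal lists this class was at 17.6% in gastrula and 32.4% in prism, against 33.6% and 33.9% of those genes. The class present before gastrula followed, with 42.9% (26.3 to 60.6) in gastrula and 40% (23.9 to 57.9) in prism, and these intervals overlap those of the gastrula class. In blastula that order was turned round, with 14 of 35 (40%) against 10 of 34 (29.4%). Of the members first at prism 8 of 31 had one in prism (25.8%, 11.9 to 44.6), and of those first at pluteus 27 of 80 (33.8%, 23.6 to 45.2). The classes differ in RNA level as well, and the part of level in this difference was not tested. PL22586 and PL02675, both among the highest in gut, had no start peak in any list. PL28217 had one in blastula, gastrula and prism, with summits at -160, -205 and -137 bp, where negative values lie before the start. PL33885 had one in the same lists, at -862, -870 and -358 bp. Both starts thus had a peak in the lists from blastula to prism and none in 16-cell or pluteus.

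**Figure D5:**
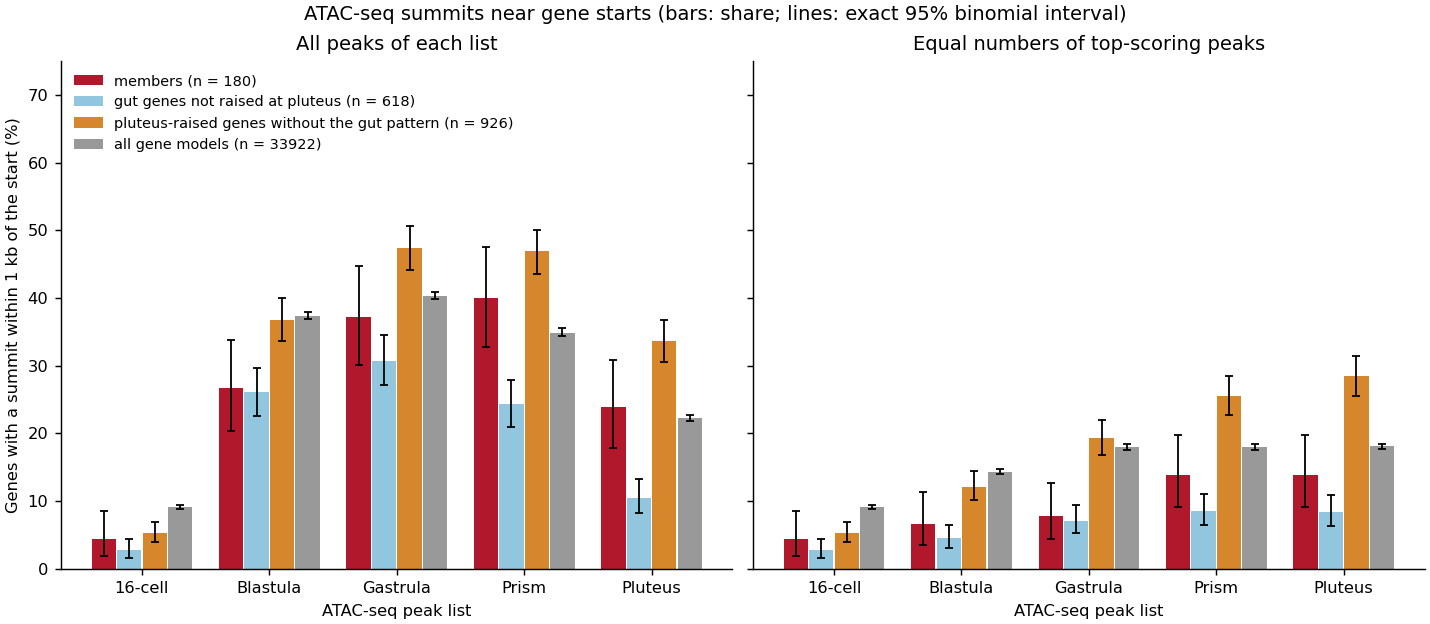
Share of genes (bars, %) with an ATAC-seq summit within 1 kb of the start in 5 peak lists, with exact 95% binomial intervals, for the 180 members, both comparison lists and all 33922 models; full lists on the left, the 30683 top-scoring peaks of each list on the right. The members' prism bar, at 40%, is above that of all models on full lists and below it, at 13.9%, on equal lists.

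Summits anywhere in the gene span, start peaks included, were counted as well. They were found for 120 members in blastula (66.7%, all models 52.8%), 123 in gastrula (68.3%, all models 51.8%) and 110 in prism (61.1%, all models 45.6%). The shorter 16-cell and pluteus lists had one for 40 (22.2%, all models 22%) and 57 members (31.7%, all models 27.6%). Genes at 5 CPM or more in pluteus stood above the members in all 5 lists, at 72%, 70.9%, 65.1%, 31% and 46.9% in the order given. With equal lists 35 to 45 members had a summit in the span in each list, so the contrast between lists went with their length. The members' shares were then 25% in blastula (all models 24.5%), 19.4% in gastrula (23.3%), 21.7% in prism (22.9%) and 21.7% in pluteus (21.9%). On equal lists they were thus near or below all models. The members' median span was 11947 bp, against 6459.5 bp over all models, and the part of span length was not tested. Within 10 kb of the span 163 members (90.6%) had a summit in at least 1 list, near the 87.8% of all models.

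The members' gene models were larger than the median model, but not larger than those of all genes expressed in pluteus or in gut. Their median was 9 exon records, 1897 bp of exon and a span of 11947 bp, compared with 4 records, 1096 bp and 6459.5 bp over all models. Single-exon models made up 5.56% of the members and 23.2% of all. Genes at 5 CPM or more in pluteus had medians of 9 records, 2283 bp and 14652 bp, and genes at 10 CPM or more in gut 11 records, 2588.5 bp and 15883 bp. The gut genes not raised at pluteus were smaller than the members, with 6 records, 1431 bp and 9825 bp. The pluteus-raised genes without the gut pattern had fewer records but similar lengths, with 7 records, 1906 bp and 12450 bp. The members were spread over 21 scaffolds. A model on the opposite strand overlapped 20 of them (11.1%, all models 7.15%, genes at 10 CPM or more in gut 11.9%). Their counts could include reads of that partner because the strand setting of the counting was not checked against the kit.

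Some members lay next to each other. The neighbouring gene model was also a member for 41 (22.8%), in 17 runs, of which 12 were pairs and the longest held 5. In the comparison lists, which are longer, the shares were 35% of the gut genes not raised at pluteus and 23.3% of the pluteus-raised genes without the gut pattern. Of the 24 neighbouring pairs 19 shared a strand and 19 had gut levels within 4-fold of each other, but only 10 fell in the same class of first library. The median gap was 994.5 bp, with 2 overlapping pairs entered as negative gaps. Strand and level were not compared in neighbouring pairs of other genes. Whether neighbours are copies of a gene or pieces of a single gene was not tested.

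The run of 5 lies on Scaffold_3432 (13922550 to 13965634). Its members stood between 65.22 and 175.2 CPM in gut and between 39.78 and 150.2 CPM in bodywall, but between 0 and 107.1 CPM in prism and between 9.502 and 115.4 CPM in pluteus. Gut levels were thus closer to each other than prism levels. A pair on Scaffold_3434 (+ strand, 42973446 to 43020369) was at 655.5 and 1676 CPM in gut, and both of its members first reached 5 CPM in prism, at 10.74 and 131.8 CPM. In late gastrula they had been at 1.366 and 1.457 CPM. A run of 3 on Scaffold_3426 (- strand, 19136784 to 19200909) stood at 9.552 to 57.45 CPM in bodywall and at 41.41 to 242.4 CPM in gut. In 8 of the 17 runs both the lowest and the highest level were lower in bodywall than in gut on library totals. These runs were singled out after their values were seen.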

How the data were processed

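RNA values are the authors' deposited counts, whole numbers for each gene model in 22 libraries. Per the submitters' processing notes, STAR 2.5.2b and featureCounts 1.6.1 were used, and the file header gives strand option 1. That this is the strand of the transcripts was not tested, and the opposite strand may have been counted. Every count was even except in bodywall, where 52.4% of nonzero counts were odd, and Poisson intervals rest on halved counts in the others. For the genome build, no name is given in the sources used here. The deposited ATAC-seq peak lists hold for each peak the authors' area score and −log10 p-value, and Bowtie2 2.4.1 and Genrich are named in the submitters' processing notes. The score was used only to rank peaks. From their names, lists were taken as calls on pooled samples. Early and late blastula lists were identical and used as 1. The 4 CUT&Tag samples were not analysed here.

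Levels are CPM of the library total, with TMM as the alternative, and ratios of medians add a prior of 0.5 CPM. The test before gastrula used edgeR 4.0.16 (R 4.3.3) with TMM, filterByExpr with 1 group and a natural spline (3 degrees of freedom), with DESeq2 1.42.0 among the alternatives, and was tested on simulated data. Libraries were not said to be separate cultures, so p-values measure scatter around a curve, which may be technical. Binomial intervals are Clopper-Pearson. Alternatives changed scaling, filters, limits of the rule, windows and list lengths, and left out each early library. The members and lists were chosen with earlier results of these data known. With identifiers only, the rule for named genes took the 2 members highest in gut and the 2 with the most negative fitted change before gastrula, at an adjusted p under 0.05 and 5 CPM in 1 of 13 libraries. A list of digestive genes needed names and was not used.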

Additional observations from a re-analysis of the deposited data

How the results depend on the processing

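With bodywall among the tissues that gut had to exceed, 21 members were left, and TMM levels gave 172, of which 149 (82.8% of the members) were shared. Before gastrula the count higher was 61 with the design matrix in the filter (chosen after seeing the data) and 63 with no filter, and the count lower was 10 and 11, and 5 with library totals only. With both of these filters more members entered, 136 and 176 against 26 in the reported fit, and the cause was not tested further. The share over all genes was not counted for the design matrix filter. Leaving out 1 early library gave 5 to 8 higher and 1 to 3 lower, with 1 lower without egg. TMM gave 75 members with the prism pattern, 95 with the bodywall pattern, a median log2 gut to bodywall ratio of 1.35 and 51 members first at prism. At 2 CPM 74 members came before gastrula and 44 first at pluteus. Start peaks numbered 3 and 17 in 16-cell with windows of 500 bp and 2 kb, and 27 in blastula with 500 bp. With equal lists start peaks numbered 12 in blastula, 14 in gastrula and 25 each in prism and pluteus. Summits in the span then numbered 45, 35 and 39 in blastula, gastrula and prism, and within 10 kb 86, 76 and 83. Shorter lists hold fewer peaks by construction. Without PL22586 the gut share was 6.14% (chosen after seeing the data). The fitted change of PL33885 was -0.98 without egg (adjusted p = 0.06) and kept its call in 20 of 21 settings, and that of PL28217 in all 15 that it entered; it has no value with counts divided by 2 or without 6 of the early libraries in turn. Of all values recomputed 99 stayed within the limits set, 27 moved and 1 lost its call. No paired analysis was possible because each stage and tissue has a single RNA library. The count filter, asked of each early library, limits the test before gastrula to few members. Single libraries leave no replicate error, and pooled lists give no spread of peaks.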
